A study of Homo sapiens with 12 samples.

Results

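LACTB KO iMGLs were compared with WT iMGLs in differentiation 2, which gave 6 of the 12 bulk RNA-seq libraries of the study. The 6 libraries were chosen by the batch label and by the column names of the deposited table, and no measured value entered the choice. All came from WTC11, a human iPSC line in wide use as an established line. The name iMGLs stands for the microglia grown from it by way of hematopoietic precursors. WT clones J, K and L are control lines that went through CRISPR editing in the same parent line, and clones A, B and C of LACTB KO are clonal lines that carry the edit. Each clone gave 1 library, so that a genotype is represented by 3 clones and the tests measure the spread between those clones. Cells of both genotypes were kept with IL34, TGFb and MCSF, received CX3CL1 and CD200 for the last days, were given no other treatment, and were collected on day 27 by the labels. Differentiation 1 of the same clones, the other 6 libraries, was used where the comparison called for it.

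LACTB encodes a mitochondrial relative of the bacterial beta-lactamases and has been linked to the lipid metabolism of mitochondria. Microglia are the resident phagocytes of the brain, and they depend on CSF1R signaling and on TGF beta for their identity. Their lysosomes, lipid-handling genes and antigen presentation change with state, and the set called disease-associated microglia gathers genes for lipid uptake, lysosomal proteases and surface receptors.

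Libraries held between 26881840 and 28406943 estimated counts, and 15692 genes passed the expression filter. Levels are given as CPM, which are counts scaled to a common total after correction for library composition, in the order J, K, L for WT and A, B, C for LACTB KO. The score of a gene list is the mean log2 CPM of its tested members. All 14 microglial markers checked were detected. CSF1R, the receptor for MCSF and IL34, lay between 1359 and 1802 CPM, C1QC between 1219 and 2004 CPM and AIF1 between 371 and 425 CPM. TMEM119 lay between 0.475 and 10.5 CPM and SALL1, a microglial transcription factor, between 0.383 and 0.522 CPM, so that SALL1 was low in all 6 libraries and TMEM119 was at 1.29 CPM or below in all but clone J.

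Some libraries stood apart from the others before any comparison of genotypes. WT clone J had 453 genes at more than 1 log2 unit above all 5 other libraries and 309 genes as far below them. WT clone K had 351 above and 46 below, whereas in the remaining libraries these counts lay between 5 and 10 above and between 35 and 144 below. The first principal component held 48.2% of the variance and placed J, K and B on one side, and the second held 26.8% and set J apart. After the genotype means were removed, K correlated with B (r = 0.59) and L with C (r = 0.52) across the 15692 genes, against 0.08 for J with A. These correlations describe genes within the same libraries, and the labels name no such pairs. The stromal and smooth muscle score was 2.5, 5.62 and 0.30 in WT and 0.10, 3.71 and -0.27 in LACTB KO, so that clones K and B were highest. Alternative fits, chosen with these values known, took J-A, K-B and L-C as pairs in a block. List medians are also given below without clones that turned their direction. In bulk RNA, fewer cells of a type and less RNA per cell cannot be told apart.

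LACTB (ENSG00000103642.12, chromosome 15 of GRCh38, 63121833 to 63142061, plus strand) was measured first as the edited gene. WT libraries had 79.8, 96.8 and 74.2 CPM, and LACTB KO libraries had 9.42, 50.9 and 7.39 CPM. All LACTB KO libraries were below all WT libraries, but clone B stood between the WT clones and the other LACTB KO clones. Relative to the WT mean, clone A had 11.3%, clone B 60.9% and clone C 8.84% of the transcript. The WT mean was 83.6 ± 11.8 CPM and the LACTB KO mean was 22.6 ± 24.6 CPM (SD, n = 3 each). The log2 fold change was -1.89 (standard error 0.745, adjusted p = 0.929 in edgeR's quasi-likelihood test). An exact two-sided permutation test gave p = 0.1, the smallest value that 3 clones against 3 allow. Without clone B the log2 fold change was -3.32 (adjusted p = 0.115), also short of the threshold of 0.05. The transcript level of an edited gene does not measure its protein.

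No gene passed the test across the transcriptome. In edgeR's quasi-likelihood test 0 of 15692 genes (0%) had an adjusted p under 0.05, and the smallest adjusted p was 0.929. An unadjusted p under 0.05 was reached by 155 genes that were higher in LACTB KO (0.988%) and by 372 that were lower (2.37%). Limma voom also gave 0 genes with an adjusted p under 0.05, with 376 at an unadjusted p under 0.05, whereas DESeq2's Wald test gave 3 and 704. With a clone left out, edgeR gave 0 genes with an adjusted p under 0.05 each time, but the number at an unadjusted p under 0.05 moved to 346 without J, 1368 without L, 164 without A and 292 without C. The groups did not overlap in 700 genes that were higher in LACTB KO (4.46%) and in 694 that were lower (4.42%). Differences below are therefore values with their direction, and the adjusted p in edgeR was between 0.929 and 0.995 for every gene with a log2 fold change unless another value is printed.

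The genes that DESeq2 called were NSMCE1, H4C12 and ASAP2. NSMCE1, which encodes a RING-type subunit of the SMC5/6 DNA repair complex, had 9.00, 10.5 and 7.79 CPM in WT and 17.6, 18.1 and 15.5 CPM in LACTB KO. Its log2 fold change was 0.90 (standard error 0.150), and DESeq2 gave an adjusted p of 0.0085. In differentiation 1 the same clones had 7.61, 11.3 and 7.88 CPM in WT and 17.1, 17.3 and 12.6 CPM in LACTB KO, so that the groups did not overlap there either. ASAP2, a GTPase-activating protein for ARF small GTPases, had 11.8, 11.3 and 9.25 CPM in WT and 2.56, 3.90 and 5.51 CPM in LACTB KO. Its log2 fold change was -1.44 (standard error 0.297, adjusted p = 0.034 in DESeq2), but in differentiation 1 it was -0.04. H4C12, one of the histone H4 genes, had 24, 16 and 17 counts in WT and 0 counts in all 3 LACTB KO libraries. With a floor of 3 counts per library it was at least 6.39-fold lower in LACTB KO (adjusted p = 0.028 in DESeq2), and its counts in differentiation 1 were 22, 0 and 2 in WT and 0, 0 and 10 in LACTB KO. Histone H4 genes are near-identical copies of each other, so that reads may have been divided between them and this value is uncertain.

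The 10 genes with the smallest p among those higher in LACTB KO were named whether or not they passed the test. BMP8A, a ligand of the BMP family, had 1.36, 1.39 and 1.83 CPM in WT and 7.63, 3.13 and 4.93 CPM in LACTB KO. Its log2 fold change was 1.77 (standard error 0.363). REEP1, which shapes the tubular endoplasmic reticulum, had 5.29, 6.09 and 5.37 against 8.40, 9.29 and 7.90 CPM. In both genes every LACTB KO clone was above every WT clone, but in differentiation 1 their log2 fold changes were -0.21 and -0.50. PREX2, an activator of the GTPase Rac, had 38.1, 48.6 and 52.6 against 84.3, 67.0 and 60.7 CPM. BIK, a pro-apoptotic member of the BCL2 family, had 3.38, 4.66 and 5.11 against 8.54, 6.37 and 7.79 CPM. Their log2 fold changes were 0.60 and 0.78 in differentiation 2, and 0.03 and 0.23 in differentiation 1. SPSB3, an adaptor of ubiquitin ligases, and ZNF689, a zinc finger gene, had log2 fold changes of 0.36 and 0.27. FRG1CP, POC1B-GALNT4 and POLR1HASP also belonged to the 10, with log2 fold changes of 1.24, 1.29 and 2.56. They are a pseudogene, a read-through gene and an antisense gene, whose reads may be shared with neighbors or copies, and they are uncertain for that reason.

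Among the 10 genes with the smallest p on the lower side was CTF1, which encodes the IL6 family cytokine cardiotrophin 1. CTF1 had 0.514, 0.452 and 0.522 CPM in WT and 0.146, 0.104 and 0.11 CPM in LACTB KO. The floor of 3 counts was 0.108 CPM on average in the LACTB KO libraries, so that these levels lay near it. LAPTM4A, a transmembrane protein of lysosomes and endosomes, had 165, 151 and 144 against 123, 124 and 123 CPM, a log2 fold change of -0.32. The LACTB KO clones hardly differed from each other in LAPTM4A. EVC, a ciliary protein of Hedgehog signaling, had 2.61, 2.96 and 0.708 against 0.329, 0.522 and 0.331 CPM. CELSR1, a cadherin of planar cell polarity, had 4.85, 3.20 and 0.858 against 0.365, 0.591 and 0.11 CPM. In both genes WT clone L was nearest to the LACTB KO clones. GSDMA, a pore-forming gasdermin, had 5.14, 0.591 and 0.708 against 0.0730, 0.209 and 0.11 CPM, with clone J far above the rest. The lowest LACTB KO values of CELSR1 and GSDMA were at or below about that floor as well. ZNF132, MIR22HG and DPH5-DT had log2 fold changes of -2.07, -0.54 and -0.87, the last being a divergent transcript whose reads may be shared with its neighbor.

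Of the 10 genes named on the higher side, 6 also had a positive log2 fold change in differentiation 1, and 1 of them, NSMCE1, did not overlap between groups there. Of the 9 on the lower side that were tested in differentiation 1, 9 were also lower there, and 2, EVC and ZNF132, did not overlap. Across all genes tested in both differentiations, 2.45% did not overlap and were higher in LACTB KO in differentiation 1. Among the 693 such genes that did not overlap and were higher in differentiation 2, the share was 3.61% (25 genes). For genes lower in LACTB KO the corresponding shares were 2.52% of all and 4.95% of 666 (33 genes). Both differentiations used the same clones, though no library was shared.

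**Figure D1:**
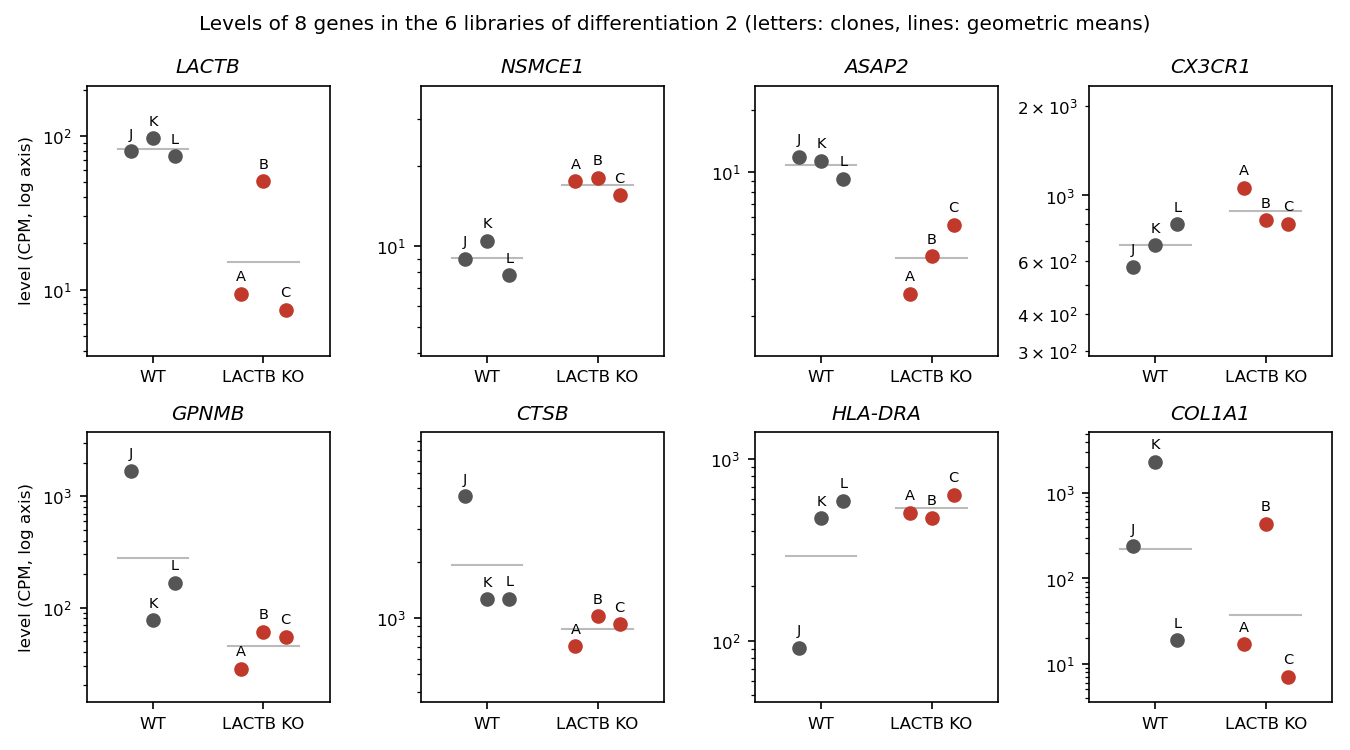
Level in CPM (log axis) of 8 genes in the 3 WT and 3 LACTB KO libraries of differentiation 2, with a point per library, its clone letter above it and a line at the geometric mean. LACTB KO clone B lies at 50.9 CPM of LACTB, NSMCE1 and ASAP2 do not overlap between genotypes, and GPNMB, CTSB, HLA-DRA and COL1A1 each have WT libraries far apart.

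Promoters of lysosomal genes are shown before the values of that list. TCACGTGA is the core of the CLEAR element, which TFEB and related factors bind in promoters of lysosomal genes. It is a palindrome, so both strands were searched at once. RefSeq promoters of 300 bases (250 before and 50 after the start, GRCh38.p14) were at hand for 24 of the 38 genes of the lysosome list, and 6 of them (25.0%) held the motif. Of all 27305 promoters of that length 283 (1.04%) held it. For 5 of the 6, each with the motif before the start, 60 bases around it are printed 5′ to 3′ with the motif in capitals. The other promoter is not shown.
ATP6V0D1: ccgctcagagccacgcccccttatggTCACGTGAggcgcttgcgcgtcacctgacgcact
CTSA: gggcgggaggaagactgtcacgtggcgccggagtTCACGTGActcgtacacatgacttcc
GAA: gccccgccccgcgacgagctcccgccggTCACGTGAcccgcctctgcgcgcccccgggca
LAMP1: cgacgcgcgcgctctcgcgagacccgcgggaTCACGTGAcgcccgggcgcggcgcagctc
MCOLN1: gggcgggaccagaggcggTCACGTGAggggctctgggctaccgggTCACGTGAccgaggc
These are chr16:67481184-67481243 on the minus strand for ATP6V0D1 (a subunit of the proton pump), chr20:45891275-45891334 for CTSA (cathepsin A), chr17:80101521-80101580 for GAA (acid alpha-glucosidase), chr13:113297179-113297238 for LAMP1 (a lysosomal membrane protein) and chr19:7522564-7522623 for MCOLN1 (a lysosomal cation channel), the last 4 on the plus strand. A match describes the letters of a promoter and does not show that a factor was bound. A link between the motif and the differences below was not tested.

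Lysosomal genes were lower in LACTB KO, with WT clone J far above the other libraries. Of the 38 genes of the list 37 were lower and 1 was higher. Their median log2 fold change was -0.42, against 0.00 over all genes tested. In 11 of the 38 the groups did not overlap with LACTB KO lower, against 4.42% of all genes tested, and 3 had an unadjusted p under 0.05, against 2.37%. That last number was 0 without A, without B and with the pairs as a block, 1 without C, 12 without L and 15 without K. Over all genes tested, the lower ones at that threshold were 111 of 16287 without A, 407 of 16104 without B and 172 of 16256 without C. They were 940 of 16279 without L, 522 of 16024 without K and 626 of 15692 with the pairs as a block. Clone J had the highest level of the 6 libraries in 36 of the 38, against 26.9% of all genes tested. LAMP1 had 384, 225 and 230 CPM in WT and 199, 202 and 203 CPM in LACTB KO. CTSA had 584, 226 and 194 against 163, 194 and 148 CPM. ATP6V0D1 had 363, 272 and 271 against 265, 274 and 249 CPM, a smaller difference with overlapping groups. GAA and MCOLN1 had log2 fold changes of -0.45 and -0.49, and their groups overlapped too. These 5 genes are shown for the motif in their promoters. CTSK, the cathepsin that degrades collagen, had 77.3, 6.50 and 8.35 against 2.34, 4.35 and 4.01 CPM, and ATP6V0D2, another subunit of the proton pump, had 67.9, 9.53 and 12.8 against 1.72, 4.91 and 8.05 CPM. In both, clone J was highest and WT clones K and L were also above all LACTB KO clones. Without clone J the median of the list was -0.07, with 31 genes lower and 7 higher. Of the lower ones 4 had an unadjusted p under 0.05, against 205 of 16152 over all genes tested without J. In differentiation 1 the median was -0.04.

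Genes of disease-associated microglia went the same way. Of 25 genes 21 were lower in LACTB KO. The median was -0.56 on the log2 scale, with 7 at an unadjusted p under 0.05 (2.37% of all genes tested) and 9 without overlap (4.42%). The 7 became 0 without A and with the pairs as a block, 1 without C, 2 without B and 12 without K or L. Over all genes tested, 522 of 16024 were lower at that threshold without K and 940 of 16279 without L. The counts of the other fits are those given for the lysosome list. GPNMB, a transmembrane glycoprotein of lipid-laden phagocytes, had 1706, 76.8 and 168 CPM in WT and 28, 60.4 and 54.4 CPM in LACTB KO. Its log2 fold change of -3.78 (standard error 1.22) was -1.36 without clone J. LGALS3, which encodes the lectin galectin 3, had 31.1, 11.3 and 8.91 against 5.26, 7.06 and 6.84 CPM. CTSB, the protease cathepsin B, had 4517, 1256 and 1271 against 702, 1018 and 926 CPM, and it was named after its values were seen. In each of these 3 genes the order was the same, with J highest, K and L next and every LACTB KO clone below. The 11 genes for lipid handling had a median of -0.73, and J was highest in all 11 of them. The 14 for surface and secreted proteins had a median of -0.37. Without J the median of the 25 genes was -0.19, with 17 lower and 6 at an unadjusted p under 0.05, and in differentiation 1 it was 0.00.

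Phagocytic receptors were the third list of this kind. Of 22 genes 19 were tested and 16 were lower in LACTB KO, with a median of -0.54, 5 at an unadjusted p under 0.05 (2.37% of all genes tested) and 7 without overlap (4.42%). The 5 became 0 without A or C, 8 without L and 9 without K. Over all genes tested, 940 of 16279 were lower at that threshold without L and 522 of 16024 without K. The counts of the other fits are those given for the lysosome list. MSR1, the scavenger receptor A, had 446, 109 and 108 CPM in WT and 53.7, 91.0 and 61.6 CPM in LACTB KO. FCGR2B, the inhibitory Fc gamma receptor, had 39.5, 7.27 and 5.41 against 1.35, 4.42 and 3.27 CPM. Both were lower in every LACTB KO clone than in every WT clone. The median was -0.27 without J, with 14 of the 19 lower and 4 at an unadjusted p under 0.05. In differentiation 1 it was -0.17.

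MHC class II genes stood the other way. Of 18 genes 15 were tested, and 12 were higher in LACTB KO with a median of 0.45. Of the 6 class II chains tested, 6 were higher in LACTB KO, with a median of 0.58, and clone J was the lowest library in all 6, against 29.0% of all genes tested. HLA-DRA, a chain of the main class II molecule, had 91.3, 470 and 588 CPM in WT and 506, 473 and 635 CPM in LACTB KO. CIITA, the master activator of class II transcription, had 47.7, 243 and 304 against 267, 261 and 359 CPM, and CD74, the invariant chain, had 1721, 5951 and 6924 against 6140, 5991 and 7310 CPM. In all 3 genes, which were named after their values were seen, WT clone L lay within the range of the LACTB KO clones and clone K just below it. HLA-DQA2, a class II chain, had 0.184, 0.487 and 0.224 against 0.767, 1.08 and 0.919 CPM, the only member without overlap on the higher side. Its near-identical paralogs make it uncertain. CTSS, the cathepsin that processes the invariant chain, had a log2 fold change of -0.48. The median of the list was 0.06 without clone J and 0.88 without clone L, and in differentiation 1 it was 0.15. MHC class I was tested in 19 genes, of which 13 were lower, with a median of -0.07. B2M, the shared light chain, and HLA-B had log2 fold changes of -0.26 and -0.37, and their groups overlapped.

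**Figure D2:**
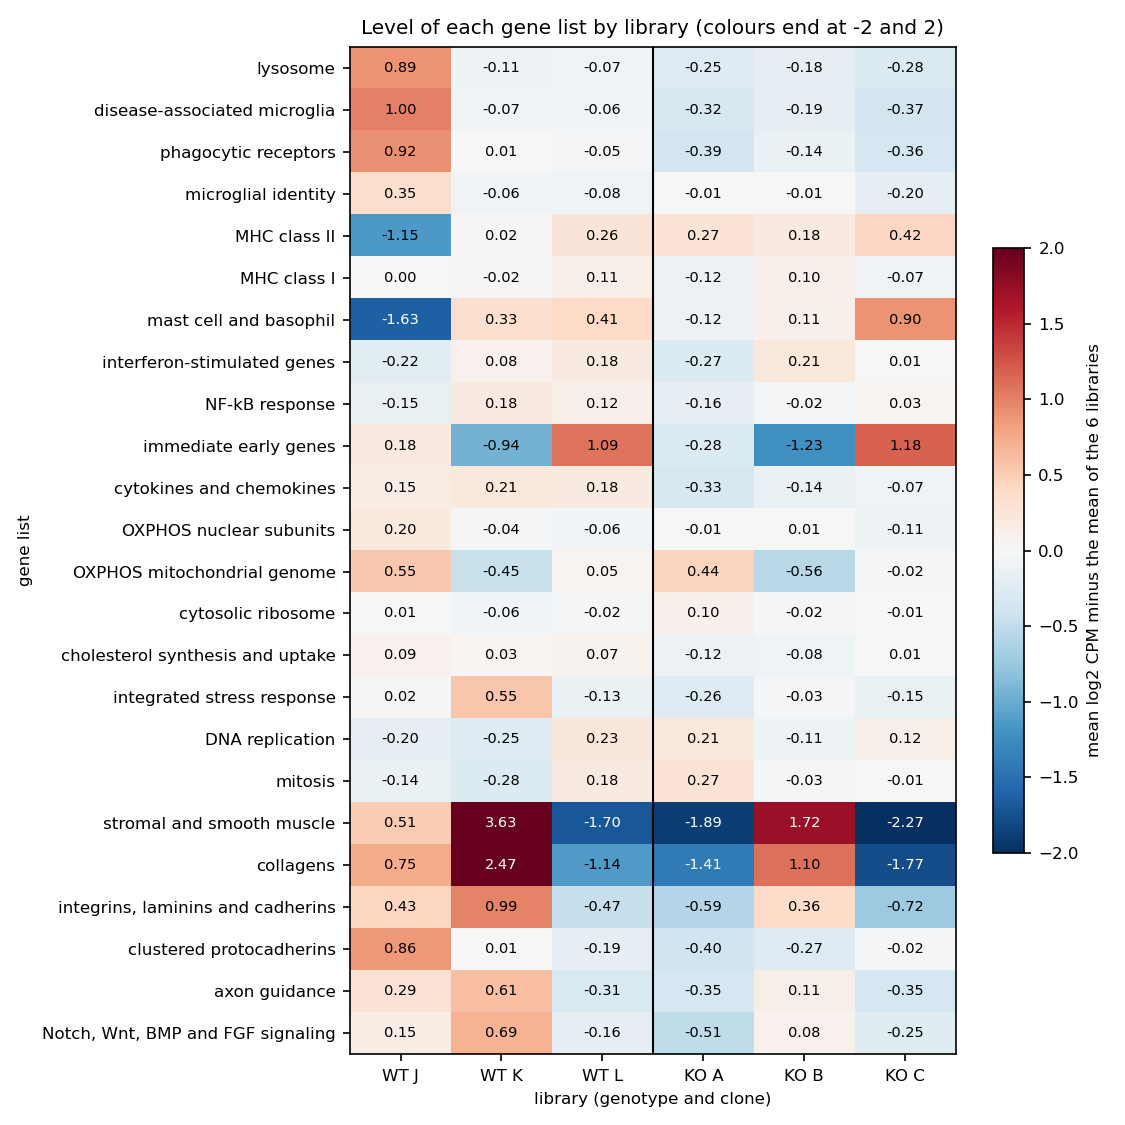
Mean log2 CPM of 24 gene lists in each library minus the mean of the 6 libraries, with genotype and clone in columns and lists in rows. WT J is highest for the lysosome list (0.89) and lowest for MHC class II (-1.15), WT K and KO B are highest for the stromal list (3.63 and 1.72), and WT L and KO C are highest for immediate early genes (1.09 and 1.18).

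Genes of microglial identity showed no common direction. LACTB KO was higher in 12 of the 31 genes and lower in 19, and the median was -0.09, or 0.03 without clone J. CX3CR1, the fractalkine receptor, had 576, 680 and 799 CPM in WT and 1063, 826 and 802 CPM in LACTB KO. Every LACTB KO clone was above every WT clone, though clone C exceeded clone L by little, and the log2 fold change was 0.38 (standard error 0.161), against -0.10 in differentiation 1. P2RY12, the purinergic receptor of resting microglia, had 64.6, 60.5 and 101 against 130, 74.2 and 107 CPM. CSF1R had a log2 fold change of 0.18 and TGFBR1, a receptor subunit for TGF beta, of -0.06, with overlapping groups in each. TMEM119 had 10.5, 1.29 and 0.671 CPM in WT and 0.475, 0.661 and 0.551 CPM in LACTB KO. Its log2 fold change of -2.89 was -0.80 without clone J.

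Cytokines and chemokines were lower more often than higher. Of 61 genes 40 were tested, and 28 of them were lower in LACTB KO with a median of -0.27. Of these 4 had an unadjusted p under 0.05 (2.37% of all genes tested). That number was 0 without A or C, 1 without J and 11 with the pairs as a block. Over all genes tested, 111 of 16287 were lower at that threshold without A and 172 of 16256 without C. They were 205 of 16152 without J and 626 of 15692 with the pairs as a block. The pairs were chosen with values of these data known, so that the count of 11 cannot serve as a test. The median was -0.28 without clone J and -0.29 without clone K. It was -0.17 in differentiation 1. The score there was 3.70, 3.40 and 3.25 in WT and 3.53, 3.33 and 3.09 in LACTB KO, with WT clone J highest and the other clones overlapping. CCL20, a chemokine that attracts CCR6-bearing cells, had 6.50, 3.86 and 6.90 CPM in WT and 3.25, 3.37 and 3.34 CPM in LACTB KO, without overlap. OSM, the IL6 family cytokine oncostatin M, had 4.22, 0.80 and 3.43 against 1.02, 0.626 and 0.809 CPM. In both genes the LACTB KO clones were close to each other and clone K was the lowest WT clone. CCL3 and CCL4, both chemokines of inflammation, had log2 fold changes of -0.67 and -0.72. In CCL3, which had 116, 25.5 and 88.8 against 33.3, 20.2 and 92.0 CPM, clones K and B were the lowest of their genotypes and L and C were close to each other. IL1B, the inflammasome cytokine, had 260, 245 and 583 against 313, 240 and 437 CPM, a log2 fold change of -0.14. IL6 did not pass the expression filter, with 7, 15 and 13 counts in WT and 3, 6 and 1 counts in LACTB KO.

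Receptors for cytokines were evenly split, since 16 of 31 were higher in LACTB KO, 15 were lower and the median was 0.01, or between -0.04 and 0.04 with a clone left out. IL6R, the IL6 receptor, had 507, 545 and 587 CPM in WT and 745, 637 and 611 CPM in LACTB KO. CCRL2, a receptor that presents chemerin, had 8.52, 1.77 and 1.94 against 0.694, 0.974 and 0.845 CPM. Neither overlapped between genotypes, and they differed in opposite directions. Interferon-stimulated genes had a median of 0.02 (27 of 47 higher), but without clone J 35 of the 47 were lower, with a median of -0.08, and without clone B 30 were lower, with a median of -0.06. GBP2, an interferon-induced GTPase, and LGALS3BP, a secreted glycoprotein, had log2 fold changes of -1.90 and -1.22, with J highest in both. Targets of NF-kB had a median of -0.14, or -0.01 without clone K. Among them MAP3K8, a kinase upstream of ERK, had 51.8, 48.0 and 51.3 CPM in WT and 43.7, 42.8 and 42.2 CPM in LACTB KO. These levels did not overlap, with a narrow spread in each genotype and a log2 fold change of -0.24. TNIP3, an inhibitor of NF-kB signaling, had a log2 fold change of -1.95 with overlapping groups.

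Immediate early genes, which cells transcribe within minutes of a stimulus, overlapped widely between the genotypes. The score was 5.42, 4.31 and 6.34 in WT and 4.97, 4.01 and 6.42 in LACTB KO. The lowest values were those of K and B and the highest those of L and C. FOS, a subunit of the AP-1 factor, had 692, 37.2 and 791 CPM in WT and 260, 41.2 and 1146 CPM in LACTB KO. EGR1, a zinc finger factor, had 448, 14.0 and 857 against 380, 10.1 and 1026 CPM, and both genes were named after their values were seen. The list median was -0.01, with 12 genes higher and 12 lower. With a clone left out it ranged from -0.77 without C (1 higher and 23 lower) to 0.49 without L (18 higher and 6 lower), and it was -0.31 without K, 0.18 without A and 0.33 without B. With the stromal score as a covariate it was -0.82, with 22 of 24 lower. In differentiation 1 the order of the clones was another one, with scores of 5.12, 5.34 and 4.74 in WT and 5.91, 5.39 and 4.52 in LACTB KO, and 21 of 24 genes were higher in LACTB KO with a median of 0.27. KLF4, a zinc finger factor, did not overlap, with 3.89, 2.54 and 3.06 against 2.08, 1.36 and 2.24 CPM, and FOSL1 had a log2 fold change of -0.35.

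Mitochondrial genes were compared because LACTB is a mitochondrial protein. Of the 80 nuclear genes for subunits of oxidative phosphorylation, 71 were lower in LACTB KO in differentiation 2, with a small median of -0.08 and 0 of them at an unadjusted p under 0.05. All 4 genes of complex II, all 10 of complex III and all 11 of complex IV were lower, as were 31 of 37 of complex I and 15 of 18 of complex V. NDUFS5 and NDUFAB1, both of complex I, had log2 fold changes of -0.17 and -0.15 and did not overlap. WT clone J had the highest level in 71 of the 80 genes. Without it 49 were higher and 31 lower, with a median of 0.02. In differentiation 1 the direction was the other one, with 78 of 80 higher in LACTB KO and a median of 0.14. The score there was 5.86, 6.17 and 5.73 in WT and 6.15, 6.25 and 5.83 in LACTB KO. WT clone K was thus above LACTB KO clones A and C, and clone C was below WT clone J. The difference between the differentiations was tested as the interaction of genotype and differentiation. The interaction had a median of -0.24 on the log2 scale over these genes and an unadjusted p under 0.05 in 0 of them.

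The share of counts from the mitochondrial genome was 5.00%, 2.68% and 3.71% in WT and 4.61%, 2.5% and 3.59% in LACTB KO. It was lowest in K and B and highest in J and A. The 13 protein-coding genes of that genome had a median of -0.09, with 11 of 13 lower. It was 0.18 without J (13 of 13 higher), 0.14 without B (11 of 13 higher), -0.28 without K and -0.35 without A. With the pairs as a block 12 of 13 were lower, 3 of them at an unadjusted p under 0.05, against 626 of 15692 over all genes tested. The pairs were chosen with values of these data known, and the share above follows them, so that this count cannot serve as a test. MT-ND3 and MT-ND6, both of complex I, had log2 fold changes of -0.23 and -0.32. The genes of the TCA cycle and the carnitine shuttle were lower in 19 of 26, with a median of -0.05 that was 0.02 without clone J. In differentiation 1, by contrast, 26 of 26 were higher, though the score of LACTB KO clone C (6.10) was below that of WT clone K (6.22). CPT1A, which makes acylcarnitines for import into mitochondria, had 15.9, 13.4 and 11 CPM in WT and 7.96, 9.64 and 9.08 CPM in LACTB KO. SLC25A20, the carnitine-acylcarnitine carrier, had a log2 fold change of -0.14, also without overlap. In differentiation 1 these genes had log2 fold changes of 0.40 and 0.26. Mitochondrial ribosomal proteins were lower in 45 of 75 with a median of -0.01, or 0.02 without clone J with 42 of 75 higher, and MRPS9 and MRPL2 had log2 fold changes of -0.20 and 0.23. Cytosolic ribosomal proteins were higher in 59 of 78, with a median of 0.03 and 8 without overlap (4.46% of all genes tested). Without clone A 38 of 78 were higher. RPL13 and RPL10A were at 0.15 each with all 6 libraries. Glycolytic genes were lower in 17 of 22 with a median of -0.04, and in 11 of 22 without clone K, and HK3 and PFKM, a hexokinase and a phosphofructokinase, had log2 fold changes of -1.85 and -0.48 with J highest.

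List medians of lipid and stress genes were small. Genes for cholesterol synthesis and uptake were lower in LACTB KO in 20 of 23, with a median of -0.13. It was -0.10 without clone J, -0.16 without clone K and -0.30 in differentiation 1. The score in differentiation 1 was 6.75, 5.90 and 5.87 in WT and 5.97, 5.80 and 6.08 in LACTB KO. There WT clone J stood far above the other libraries, and WT clones K and L lay among or near the LACTB KO clones. MSMO1, a sterol oxidase of the pathway, had 199, 166 and 120 CPM in WT and 104, 132 and 106 CPM in LACTB KO. DHCR7, a late enzyme of the pathway, had 217, 192 and 184 against 169, 170 and 178 CPM, without overlap. The genes for phosphatidylethanolamine and phosphatidylserine were lower in 9 of 10, with a median of -0.06. Without clone J 5 were lower and 5 higher, with a median of -0.01. With all 6 libraries PTDSS2, a phosphatidylserine synthase, and PEMT, which methylates phosphatidylethanolamine, were at -0.23 and -0.19 on the log2 scale. The integrated stress response had a median of -0.20, with 14 of 21 lower, and of 0.01 without clone K. TRIB3, a pseudokinase induced by that response, had 3.86, 3.37 and 2.01 CPM in WT and 1.06, 1.74 and 1.40 CPM in LACTB KO. GDF15, a secreted stress cytokine, had 22.9, 8.38 and 7.57 against 2.41, 3.93 and 5.22 CPM. Neither overlapped between genotypes.

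Genes of the cell cycle were higher in LACTB KO in number and by a small amount. Of 59 genes for DNA replication 52 were higher, with a median of 0.14, and of 45 for mitosis 41 were higher, also with a median of 0.14. In both lists 0 genes had an unadjusted p under 0.05 and 0 were without overlap. The replication score was 4.54, 4.49 and 4.97 in WT and 4.95, 4.63 and 4.86 in LACTB KO, so that WT clone L was as high as the LACTB KO clones. Without clone K, whose stromal score was the highest, the medians were 0.03 and 0.04, and without clone J they were 0.07 and 0.10. Without clone L they were 0.33 and 0.29, with 17 of the 59 and 13 of the 45 genes higher at an unadjusted p under 0.05. Of all genes tested without L, 428 of 16279 were higher at that threshold. MCM2, a subunit of the replicative helicase, had 48.9, 38.0 and 69.0 CPM in WT and 64.3, 50.4 and 61.3 CPM in LACTB KO. ATAD2 and RFC2, a chromatin factor and a clamp loader subunit, had log2 fold changes of 0.25 and 0.26, and CENPE and NUF2, both of the kinetochore, of 0.25 and 0.36. CDKN2C, an inhibitor of CDK4 and CDK6, had 19.9, 19.1 and 26.5 against 29.9, 23.3 and 26.7 CPM. PCNT, a scaffold of the centrosome, and ABCA7, a lipid transporter, had log2 fold changes of 0.06 and 0.03. In differentiation 1 the replication list had a median of 0.31 and 58 of 59 genes higher, and the mitosis list a median of 0.06 and 35 of 45 higher. The replication score there was 4.24, 5.35 and 4.94 in WT and 5.14, 5.53 and 5.00 in LACTB KO. The mitosis score was 3.49, 4.22 and 3.97 against 3.62, 4.21 and 4.11. WT clone J was the lowest library in both, and WT clone K was above LACTB KO clones A and C.

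**Figure D3:**
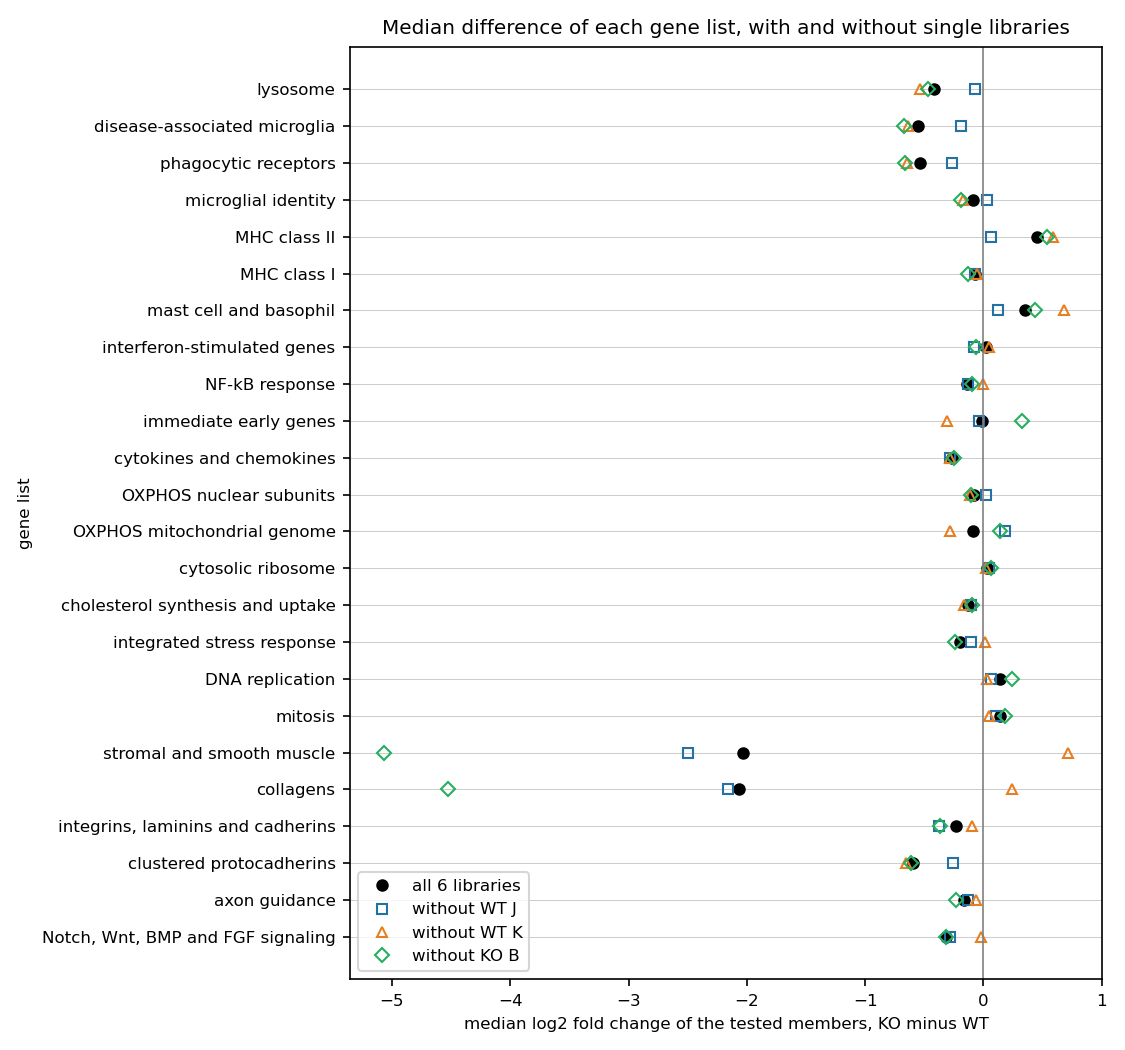
Median log2 fold change (LACTB KO minus WT) of 24 gene lists with all 6 libraries and without WT J, WT K or KO B. Without WT J the lysosome list moves from -0.42 to -0.07 and MHC class II from 0.45 to 0.06, and without WT K the stromal list moves from -2.03 to 0.72.

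Stromal and matrix genes differed widely between clones of the same genotype, with K highest in WT and B highest in LACTB KO. Of 37 stromal and smooth muscle genes 29 were tested, 27 were lower in LACTB KO and the median was -2.03. Of the 29 genes 1 was lower at an unadjusted p under 0.05 (2.37% of all genes tested), and the groups overlapped in all 29. COL1A1, the main chain of type I collagen, had 238, 2336 and 19.0 CPM in WT and 16.9, 440 and 7.06 CPM in LACTB KO, and it was named after its values were seen. WT clone L was close to LACTB KO clones A and C. Summed over the list, levels were 661, 8771 and 355 CPM in WT and 224, 1778 and 317 CPM in LACTB KO, and DPT and TCF21 were at 0 in all 6 libraries. Without clone K the median was 0.72, and without clone B it was -5.07 with 11 genes lower at an unadjusted p under 0.05. Of all genes tested without B, 407 of 16104 were lower at that threshold. With the pairs as a block 23 of the 29 genes were lower at an unadjusted p under 0.05, with a median of -2.01. Of all genes tested in that fit, 626 of 15692 were lower at that threshold. The pairs were chosen with these values known, K and B being highest, so that this count cannot serve as a test. With the score as a covariate the median was -0.06, which that fit imposes by its construction. The removal of both K and B, chosen with values known, gave a median of -1.71 over the 22 genes then tested. DCN and SNAI2, a matrix proteoglycan and a mesenchymal transcription factor, were at -4.43 and -2.75 on the log2 scale, with at least 1 library at 0 for either gene. In differentiation 1 the median was -3.28, with WT clone J as the library with the highest score (5.25) in place of K.

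Of 43 collagen genes 26 were tested and 23 were lower in LACTB KO, with a median of -2.07, which was 0.24 without clone K and -4.52 without clone B. COL6A1, a chain of type VI collagen, had 111, 126 and 14.5 CPM in WT and 2.96, 21.3 and 6.40 CPM in LACTB KO. Clones J and K were high and L lay below clone B. COL23A1, a transmembrane collagen, did not overlap, with 10.1, 3.69 and 4.66 against 2.88, 2.68 and 2.79 CPM. All 8 laminin genes tested were lower in LACTB KO and 4 of them had an unadjusted p under 0.05 (2.37% of all genes tested), with a median of -1.76, but the groups overlapped in all 8. Their score was 2.91, 3.76 and 0.84 in WT and 0.51, 2.28 and 0.31 in LACTB KO, so that clone B was above WT clone L. LAMB3, a subunit of epithelial laminin, had 13, 4.0 and 2.09 against 1.17, 2.54 and 1.47 CPM. CDH1, the gene of E-cadherin, was higher in LACTB KO, with 0.624, 0.730 and 0.708 against 1.17, 1.11 and 1.54 CPM and no overlap. Integrins, laminins and cadherins had a median of -0.23 together, and of -0.10 without clone K.

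Guidance and signaling genes of many tissues were lower more often than higher. Of 16 clustered protocadherins tested, out of 53, 14 were lower, with a median of -0.60 that was -0.25 without clone J. PCDHA12 had 4.88, 3.16 and 1.68 CPM in WT and 0.548, 1.15 and 1.40 CPM in LACTB KO, and PCDHGB6 had a log2 fold change of -0.78. The first exons of these genes are spliced to shared exons, so that reads may have been divided between them. Axon guidance genes were lower in 26 of 38, with a median of -0.17 that was -0.06 without clone K. NRP2, a co-receptor for semaphorins and VEGF, had 71.5, 32.3 and 7.27 against 1.13, 8.14 and 3.38 CPM, and SLIT2, a ligand of ROBO receptors, had 2.35, 1.88 and 0.410 against 0.219, 0.209 and 0.551 CPM. In both the groups overlapped through clone L. In differentiation 1 their log2 fold changes were -2.12 and -2.62. Genes of Notch, Wnt, BMP and FGF signaling were lower in 30 of 42, with a median of -0.32 that was -0.02 without clone K. BMP2, a ligand, had 6.13, 0.80 and 1.64 against 0, 0.174 and 0.698 CPM, and ID3, a target of BMP signaling, had 72.7, 37.4 and 41.5 against 33.3, 31.4 and 29.9 CPM. Neither of the last 2 genes overlapped between genotypes.

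Markers of other cell types differed in level between lineages. Summed over a list, the 6 libraries lay between 3.71 and 14.3 CPM for granulocytes, 15.4 and 19.4 CPM for erythroid cells and megakaryocytes, 60.1 and 71.4 CPM for epithelial cells and 85.6 and 123 CPM for pluripotent cells. The sums were higher for endothelial genes, between 342 and 429 CPM, and for neural genes, between 281 and 441 CPM. Of 19 granulocyte genes 3 were tested and 8 were at 0 in all 6 libraries, ELANE, PRTN3 and CEACAM8 among them. CEACAM6 and RNASE2 had log2 fold changes of 1.33 and -0.29, and the median of the 3 was -0.25, or 0.32 without J and 0.29 without C. Of 13 mast cell and basophil genes 5 were tested, and TPSAB1, TPSB2, CMA1, HDC and MS4A2 were at 0 in all 6 libraries. The list summed to 130, 359 and 370 CPM in WT and to 307, 344 and 463 CPM in LACTB KO. FCER1A, the alpha chain of the IgE receptor, had 14.2, 209 and 189 CPM in WT and 140, 193 and 248 CPM in LACTB KO. SLC18A2, a vesicular monoamine transporter, had 5.73, 57.8 and 77.4 against 59.1, 61.1 and 101 CPM. Clone J was far below the other libraries in both, and the list median of 0.35 was 0.12 without it and 0.68 without clone K. Erythroid and megakaryocyte genes (7 of 22 tested) had a median of -0.10, or 0.29 without J, 0.05 without K and 0.02 without L, with TUBB1 at 1.06 and GP1BA at -0.62 on the log2 scale. Endothelial genes (6 of 18) had a median of -0.32, or 0.08 without clone J, MMRN2 being at -1.34 and PECAM1 at -0.14. Pluripotent genes (5 of 12) had a median of 0.02, or -0.02 without A and -0.03 without C, L1TD1 being at -2.20 and DNMT3B at 0.45. Neural genes (10 of 16) had a median of -0.48, or -0.16 without clone K and -0.17 without clone J, with SYT1 at -1.16 and ELAVL4 at 0.60. Epithelial genes (7 of 12) had a median of 0.07, or -0.01 without clone K, and KRT8 a log2 fold change of 0.17. The part of other cells in the differences above was not tested.

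The interaction of genotype and differentiation tested whether LACTB KO differed from WT in another way in differentiation 2 than in differentiation 1. In edgeR's quasi-likelihood test 0 of 16681 genes (0%) had an adjusted p under 0.05, and 153 (0.917%) had an unadjusted p under 0.05. DESeq2 and limma voom also gave 0 genes, with 161 and 170 at an unadjusted p under 0.05. With both libraries of a clone left out the count at an unadjusted p under 0.05 lay between 72 without J and 1325 without K, and 0 genes passed the adjustment. The 3 genes with the smallest p were POLR1HASP, FBXO16 and ATF6-DT, with differences of 4.16, -2.80 and -1.82 on the log2 scale (differentiation 2 minus 1, adjusted p = 1.00 each). FBXO16, an adaptor of ubiquitin ligases, had 1.54, 0.417 and 0.485 CPM in WT and 0.256, 0.209 and 0.257 CPM in LACTB KO in differentiation 2. POLR1HASP is an antisense gene and ATF6-DT a divergent transcript, and both are uncertain. Over the lysosome list the interaction had a median of -0.26 and 2 of 38 genes at an unadjusted p under 0.05, and over the disease-associated list a median of -0.45 with 1 of 25. Over MHC class II it had a median of 0.48, and over the stromal list of 1.72. A difference between the differentiations was thus not shown for any single gene.

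**Figure D4:**
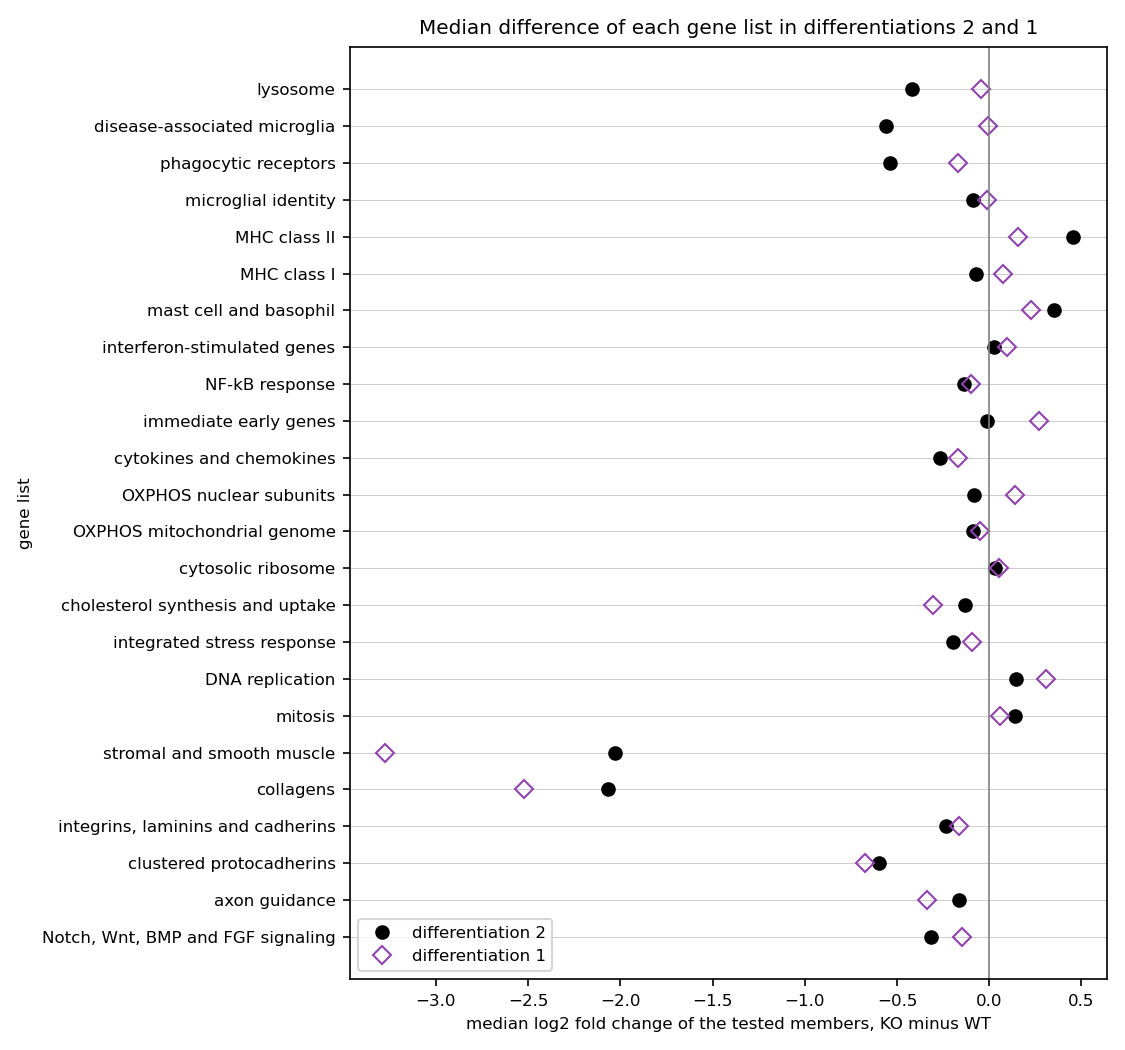
Median log2 fold change (LACTB KO minus WT) of 24 gene lists in differentiation 2 (filled circles) and differentiation 1 (open diamonds). The lysosome list lies at -0.42 and -0.04, OXPHOS nuclear subunits at -0.08 and 0.14, DNA replication at 0.14 and 0.31, and the stromal list at -2.03 and -3.28.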

How the data were processed

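Bulk RNA-seq of WTC11 iMGLs was used, with WT clones J, K and L against LACTB KO clones A, B and C in differentiation 2 and with all 12 libraries for the interaction. The authors used Cutadapt and then STAR with hg38. What they deposited is a table of estimated counts (expected counts per gene, between 10.8% and 11.2% of them not whole in the 6 libraries), with no scaling between libraries. The counting tool and its strand setting are not given in the sources used here. The design had assumed whole counts, so values were rounded. Of 62703 genes in the table, 15692 passed filterByExpr of edgeR 4.0.16 in R 4.3.3. Libraries were scaled by TMM, genes were tested by quasi-likelihood, and p-values were adjusted by Benjamini-Hochberg over all genes tested (threshold 0.05). CPM were computed from the rounded counts, and a floor of 3 counts was used where a group was at 0. The interaction was fitted to 12 libraries with clone as a fixed effect, a term for differentiation and a term for LACTB KO in differentiation 2. The 4 groups of genotype and differentiation were used for its expression filter.

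Members and gene lists (35 lists, 1213 entries) were chosen with earlier results of these data known. Genes named were LACTB and 12 others of interest, the 10 with the smallest p in each direction, the 2 with the smallest p in each list and the 3 with the smallest interaction p, without clone-type names. Alternatives covered DESeq2 size factors, no filter, unrounded values, DESeq2 1.42.0, limma 3.58.1 voom, a spread shared over 12 libraries, the stromal score as a covariate, clone pairs J-A, K-B and L-C as a block, and each clone left out. Gene coordinates came from GENCODE on GRCh38 and promoters from RefSeq.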

Additional observations from a re-analysis of the deposited data

How the results depend on the processing

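The tests rest on 3 clones per genotype. DESeq2's Wald test gave 3 genes with an adjusted p under 0.05 in place of 0, and the other alternatives gave 0. The number with an unadjusted p under 0.05 was 527 of 15692 genes, and 848 of 15692 with the clone pairs as a block. Without the expression filter it was 1092, but of 31869 genes. With a clone left out it lay between 164 of 16287 without LACTB KO clone A and 1368 of 16279 without WT clone L. It was 346 without J, 292 without C and 431 without both K and B. The clone pairs and the removal of K and B were chosen with values of these data known. LACTB kept its direction throughout, between -3.32 and -1.47 with a clone left out. The interaction gave 0 genes with DESeq2 size factors, without the filter, in DESeq2's and limma voom's tests and with each clone left out, and the other alternatives were not run for it. No paired analysis was possible from the labels because the clones of the compared genotypes carry different letters, so that the clone pairs used as a block rest on the data alone. Of 113 single genes, 14 changed sign under some alternative. With the stromal score as a covariate the log2 fold change was -0.0988 for ABCA7, -0.00195 for MCM2, -0.0592 for PCNT, 0.0661 for RNASE2 and -2.51 for EGR1, and EGR1 was at -0.156 in limma voom and at -0.141 with the clone pairs as a block. With a clone left out, values ranged from -0.0907 to 0.141 for ABCA7, from -6.18 to 0.27 for COL1A1, from -1.18 to 1.02 for EGR1, from -0.0451 to 0.932 for FCER1A, from -1.76 to 0.47 for FOS, from -0.647 to 0.0287 for GAA and from -0.396 to 0.379 for IL1B. They ranged from -0.00866 to 0.424 for MCM2, from -0.465 to 0.0524 for MT-ND3, from -0.556 to 0.0616 for MT-ND6, from -0.0534 to 0.197 for PCNT, from -0.377 to 0.0232 for PTDSS2, from -0.818 to 0.0877 for RNASE2 and from -0.164 to 0.0681 for TGFBR1. The cause was not tested.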
